A study of Mus musculus with 12 samples.

Results

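The 10 genes described here encode growth factors that oocytes secrete and the machinery with which neighbouring cells read them. Gdf9, Bmp15, Bmp6 and Fgf8 are the ligands, Bmpr2, Bmpr1b, Tgfbr1 and Fgfr1 are receptors, and Smad2 and Smad3 are the intracellular mediators. They were taken by gene symbol, and all 10 were found among the 24255 genes of the table. RNA of whole mouse ovaries was sequenced in 2 groups, all of strain C57BL/6, 6 months old and primed with 5 IU of PMSG (equine chorionic gonadotropin, a hormone that makes follicles grow), with collection 46 h later. In the CKO group (5 libraries) the kinase gene Mtor was deleted in oocytes by Gdf9-Cre, and the other 7 libraries came from wild-type ovaries (WT), for which the labels name no allele or Cre. The Cre is driven by the promoter of Gdf9, itself a ligand examined here, and acts in oocytes, so the somatic cells of CKO ovaries keep Mtor. Mice are not identified in the labels, and p-values here refer to the spread from library to library, which may be technical.

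GDF9 and BMP15 are made almost exclusively by the oocyte in the ovary and act on the granulosa cells that surround it, where they promote proliferation and the cumulus cell program. BMP15 signals through the type II receptor BMPR2 with the type I receptor BMPR1B, and GDF9 through BMPR2 with the type I receptor TGFBR1 (ALK5), which phosphorylates SMAD2 and SMAD3. FGF8 acts with BMP15 to promote glycolysis in cumulus cells through FGF receptors such as FGFR1, while BMP6 is made by oocytes and also by somatic cells of the follicle.

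Of the 10 genes, 6 had an upstream window in the RefSeq promoter table (build GRCm38.p6), and those of Bmp15 and Bmpr1b are shown because these 2 genes had the lowest log2 fold changes of the ligands and of the receptors in CKO. The stretches are the 250 bases before the annotated start, 5′ to 3′ on the gene's strand. Capitals mark TAATTA or TAATTG, the core letters of homeobox motifs such as that of NOBOX, an oocyte transcription factor, searched on both strands.
Bmp15, chrX:6320725-6320974, minus strand: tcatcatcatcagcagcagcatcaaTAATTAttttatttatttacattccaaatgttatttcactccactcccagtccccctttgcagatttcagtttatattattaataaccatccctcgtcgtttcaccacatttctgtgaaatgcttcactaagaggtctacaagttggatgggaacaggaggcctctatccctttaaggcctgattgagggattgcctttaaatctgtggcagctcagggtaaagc
Bmpr1b, chr3:141982265-141982514, minus strand: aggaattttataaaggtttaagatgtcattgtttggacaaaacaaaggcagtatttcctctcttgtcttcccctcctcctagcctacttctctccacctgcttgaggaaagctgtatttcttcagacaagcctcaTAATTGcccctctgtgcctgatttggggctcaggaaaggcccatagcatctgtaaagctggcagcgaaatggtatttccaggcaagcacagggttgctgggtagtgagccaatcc
The Bmp15 window holds TAATTA 1 time, a motif in 4.84% of the 32851 windows of that length, and the Bmpr1b window holds TAATTG 1 time, a motif in 7.17%. Either motif occurs in 11.3% of all windows, and the other 4 genes with a window (Bmp6, Bmpr2, Tgfbr1 and Smad3) hold neither. GC content was 40.4% for Bmp15 and 46.8% for the Bmpr1b window shown (52.8% and 56.4% in its other 2), and the median over all windows was 52.4%. The windows of Bmp6, Bmpr2 and Smad3 held 68.8%, 64.0% and 69.2%, and those of Tgfbr1 74.8% and 52.8%. The Bmpr1b window shown precedes an internal start, inside the annotated span of the gene, and its other 2 windows hold neither motif. A match describes letters and is not a binding site.

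Levels are in FPKM, a fragment count corrected for transcript length and for the total of the library, and the change between groups was tested on log2(FPKM + 1) with limma, a linear model that shares the estimate of spread across genes. Relative depth, read from the steps between low values, spanned a 2.18-fold range over the 12 libraries, and a lone fragment on a 1 kb transcript amounts to 0.299 to 0.652 FPKM. Mtor RNA was at 3.84 to 5.55 FPKM in WT and at 4.63 to 5.88 FPKM in CKO (log2 difference 0.08, SE 0.12, limma adjusted p = 0.709), so whole-ovary Mtor RNA does not check the labels. Ovarian and oocyte markers were present in all 12 libraries, with summed FPKM of 22 oocyte markers of 72.2 to 243 in WT and 22.1 to 86.1 in CKO. The oviduct marker Ovgp1 stood at 252 FPKM in CKO replicate 2 and 81.9 in CKO replicate 3, and below 2 FPKM in the other 10 libraries. The summed level of 3 red blood cell genes was highest, at 173 FPKM, in CKO replicate 1, and WT replicate 1 followed at 146. Very low values and values of 0 can be failed estimates in such tables, which was not tested here. The housekeeping gene Gapdh is listed at only 1.06 to 7.05 FPKM, and Impdh2 at 0 in all 12 libraries.

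Of the 10 genes, 9 passed the filter on low values, and 4 fell and 1 rose in CKO ovaries at a limma adjusted p under 0.05. Gdf9, Bmp15, Bmpr2 and Bmpr1b fell, and Fgfr1 rose. Among all 13168 tested genes 7.59% were lower and 8.70% were higher, 16.3% in either direction. The remaining 4, namely Bmp6, Tgfbr1, Smad2 and Smad3, did not pass the test. The median log2 fold change was -0.40 over the 9 tested members and -0.005 over all tested genes. Without CKO replicates 2 and 3, the libraries with the oviduct marker, 4 members were again lower and 1 higher. Groups did not overlap for 4 genes, 3 lower and 1 higher, where 7.73% of all tested genes did not overlap (3.65% lower, 4.09% higher). The plot of levels by library shows these groups, and the plot of changes gives their size.

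**Figure D1:**
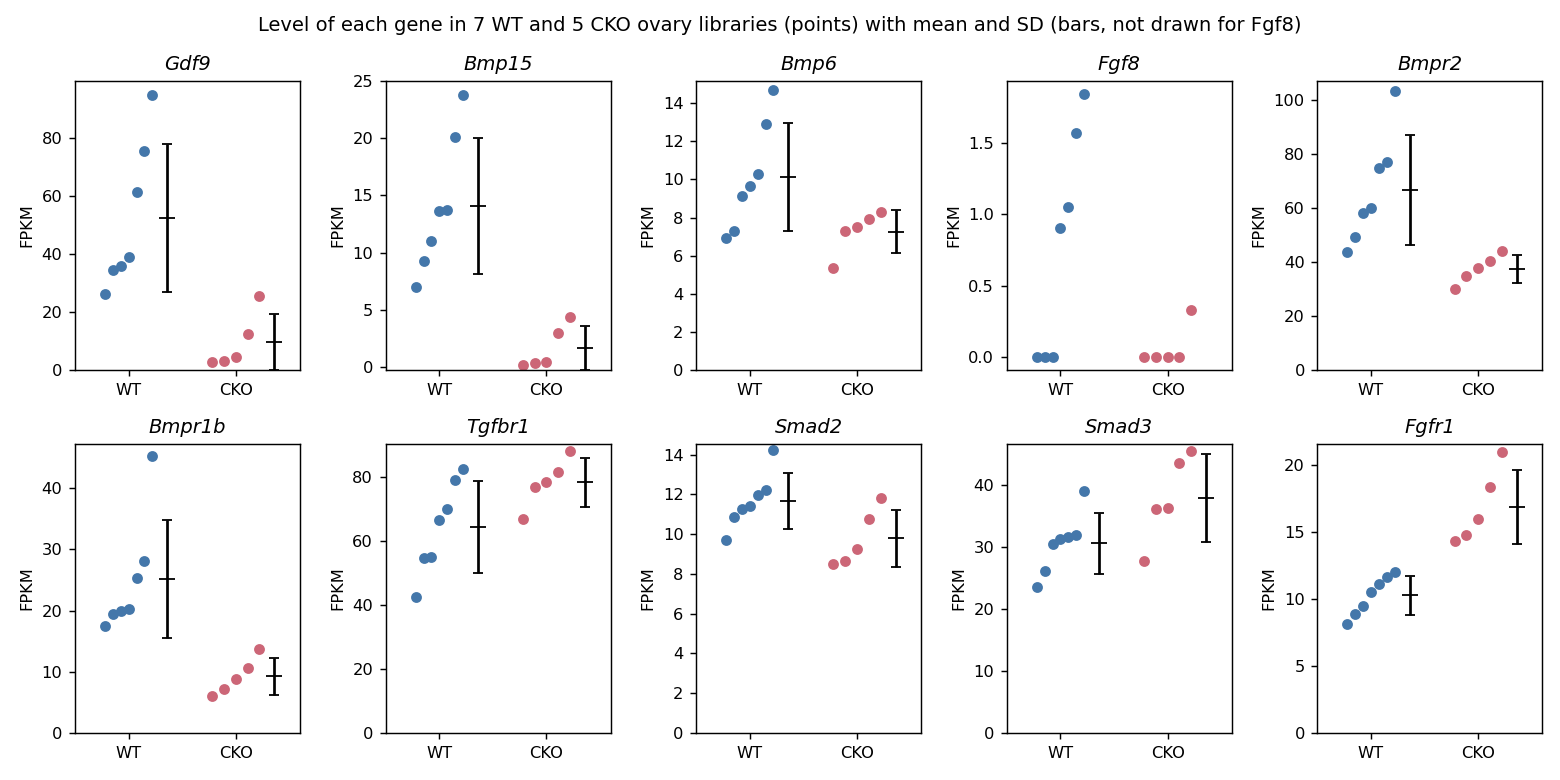
Level in FPKM (y axis, linear, own scale per gene) of the 10 genes in 7 WT (blue) and 5 CKO (red) libraries; each point is a library, ordered by value within a group, and bars give the mean and SD, which are not drawn for Fgf8 because it is listed at 0 in 7 libraries. The groups are apart for Gdf9, Bmp15, Bmpr1b and Fgfr1, and touch for Bmpr2, whose lowest WT library is at 43.8 FPKM and highest CKO library at 44.0.

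**Figure D2:**
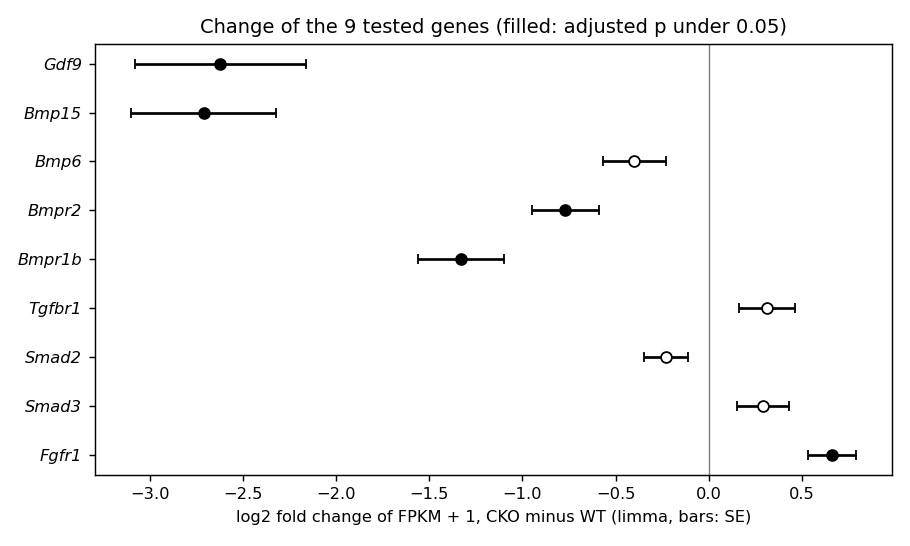
Log2 fold change of FPKM + 1, CKO minus WT (x axis), of the 9 tested genes (y axis), with the SE of the limma fit as bars; filled points passed the adjusted p of 0.05. Gdf9 and Bmp15 lie at -2.62 and -2.71, and Fgfr1 is the only filled point above 0, at 0.66.

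Both ligands known best as oocyte products were far lower in CKO ovaries. Gdf9 (chromosome 11, 53431023 to 53437904, plus strand; mm10 positions here are from GENCODE M21), the growth and differentiation factor of the oocyte, ranged from 26.2 to 95.0 FPKM in WT with a median of 39.2. In CKO replicates 1 to 5 it was at 25.5, 4.71, 3.18, 12.4 and 2.67 FPKM. Every CKO library lay below every WT library, but CKO replicate 1 came within 1 FPKM of WT replicate 7. WT averaged 52.5 ± 25.5 FPKM and CKO 9.69 ± 9.67 (SD, n = 7 and 5), 5.42 times lower, and the log2 fold change was -2.62 (SE 0.46, limma adjusted p = 0.00184). Gdf9 ranked 25 from the lowest of the 13168 fold changes. In bulk RNA, fewer oocytes and less RNA per oocyte cannot be told apart.

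Bmp15 (chromosome X, 6314107 to 6320721, minus strand), the partner ligand of GDF9, spanned 6.96 to 23.8 FPKM in WT with a median of 13.6. Its CKO values were 4.39, 0.391, 0.176, 2.97 and 0.330 FPKM in replicates 1 to 5. The groups did not overlap, and CKO replicates 2, 3 and 5 were below 0.4 FPKM. By the length of the gene's transcript these 3 values rest on about 2.9, 1.0 and 2.0 fragments, while WT libraries hold about 51.7 to 195.2. The ratio of the group means was 8.52, and the log2 fold change was -2.71 (SE 0.39, limma adjusted p = 0.000625), rank 20 from the lowest. Counting error alone is large for the 3 low libraries, so the size of the fall within CKO is imprecise there.

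The 2 ligands moved together over the libraries. Within WT alone, log2 levels of Gdf9 and Bmp15 had Pearson's r of 0.95 (n = 7, exact permutation p = 0.0008, adjusted over 5 relations 0.004) and Spearman's rho of 0.96 (exact permutation p = 0.0028, adjusted 0.014). Without the 2 libraries farthest from the median of Gdf9, r was 0.84. The within-library difference Bmp15 minus Gdf9 on the log2(FPKM + 1) scale averaged -1.79 ± 0.21 in WT and -1.88 ± 0.31 in CKO (SD, n = 7 and 5), with an exact permutation p of 0.5833. The value depends on the pseudocount: with 0.1 in place of 1 the difference between groups was -0.95 (exact permutation adjusted p = 0.004). In plain FPKM, Gdf9 was 2.86 to 4.50 times Bmp15 in WT and 5.82, 12, 18.1, 4.17 and 8.08 times in CKO replicates 1 to 5, the 3 largest ratios being those of libraries with about 1 to 3 Bmp15 fragments.

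**Figure D3:**
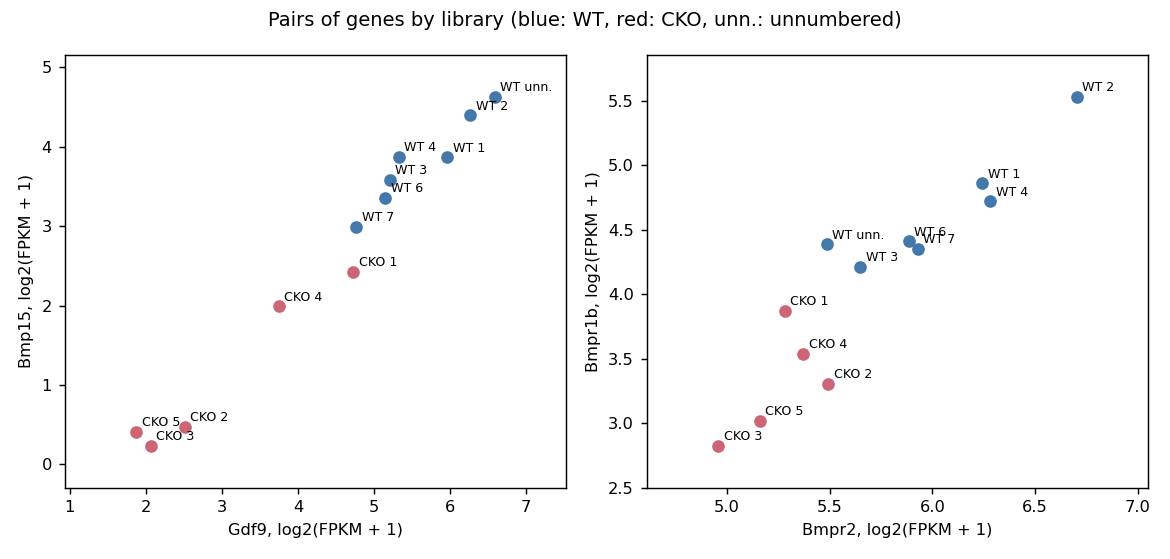
Bmp15 against Gdf9 (left) and Bmpr1b against Bmpr2 (right), all in log2(FPKM + 1), in 7 WT (blue) and 5 CKO (red) libraries, each point labelled with its library (unn. is the WT library without a number). CKO replicates 1 and 4 lie between the other CKO libraries and WT for the ligands, and WT replicate 2 has the highest level of both receptors.

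CKO replicates 1 and 4, highest for both ligands, were also the CKO libraries with the highest summed oocyte markers, at 75.5 and 86.1 FPKM, against 60.8, 24.2 and 22.1 in replicates 2, 3 and 5. Of the 22 oocyte markers, 16 were tested, 9 fell and 0 rose, and no marker was at 0 in every library. Their median log2 fold change was -1.30, from -3.40 for Zar1 to 0.74 for Figla, and Mos (-2.17), H1foo (-2.36) and Btg4 (-2.19) were among those that fell. The 7 that did not pass were Oosp1 (-1.33), Padi6 (-0.54), Dppa3 (-0.44), Nlrp5 (-0.02), Lhx8 (0.08), Nobox (0.17) and Figla (0.74). CKO replicate 4 exceeded WT replicates 6 and 7 in this sum (86.1 against 83.25 and 72.2). Its Gdf9 was lower than theirs (12.4 against 34.4 and 26.2 FPKM). CKO replicate 1 exceeded WT replicate 7 too (75.5 against 72.2), with Gdf9 at 25.5 against 26.2 FPKM. These pairs were picked after the values were seen, and the sum mixes markers that fell with markers that did not pass. Within a library, Gdf9 minus the mean log2 level of the zona pellucida genes Zp1, Zp2 and Zp3 was 3.99 ± 0.44 in WT and 1.75 ± 0.81 in CKO (SD, n = 7 and 5), and Bmp15 minus that mean was 2.2 ± 0.37 and -0.13 ± 0.66. Zp1 and Zp2, coat proteins of the oocyte, averaged near 1 FPKM or below in both groups and were not tested, so they had little room to fall on this scale, and these differences of -2.25 and -2.33 mostly restate those of the ligands. Zp3 was at 9.86 ± 4.74 FPKM in WT and 3.84 ± 2.59 in CKO, with a log2 fold change of -1.27 (limma adjusted p = 0.0471), a call lost in 8 of 12 fits with a library left out. The part of oocyte number in these falls was not tested.

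Bmp6 (chromosome 13, 38345107 to 38500302, plus strand), the BMP that the oocyte shares with somatic cells, ranged from 6.93 to 14.7 FPKM in WT with a median of 9.68. It was at 8.28, 7.27, 7.53, 7.92 and 5.34 FPKM in CKO replicates 1 to 5. The groups overlapped, with only CKO replicate 5 below all WT libraries, and the log2 fold change of -0.40 (SE 0.17) had a limma adjusted p of 0.134. In the annotation 224 of its 3900 exon bases are shared with exons of Txndc5 on the opposite strand, whose reads cannot be told apart if strand was not used in counting. Bmp6 minus Gdf9 was -2.17 ± 0.51 in WT and 0.05 ± 1.07 in CKO (SD, n = 7 and 5), a difference of 2.22 (exact permutation p = 0.0025, adjusted 0.004). Bmp6 thus lay above Gdf9 in 3 CKO libraries and in no WT library. As Gdf9 passed the test and Bmp6 did not, this difference mostly restates the fall of Gdf9.

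Fgf8 (chromosome 19, 45736798 to 45742915, minus strand), the FGF that works beside BMP15 on cumulus cells, was too low to be tested. It was listed at 1.84, 0.902, 1.57 and 1.05 FPKM in WT replicates 2, 4 and 6 and in the WT library without a number, and at 0 in the other 3 WT libraries. In CKO it was listed at 0.330 FPKM in replicate 1 and at 0 in the other 4. The highest of these values, in WT replicate 2, stands for about 4.1 fragments, and an exact permutation test of the log2 levels gave p = 0.0985. Its presence in 4 of 7 WT and 1 of 5 CKO libraries is therefore not a detectable difference at this depth. Fgf8 minus Gdf9 differed by 2.02 (exact permutation adjusted p = 0.004), a value set by Gdf9 because Fgf8 is mostly at 0, and with a pseudocount of 0.1 it was 1.08 (exact permutation adjusted p = 0.2576).

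Among the receptors, the type I and the type II receptor of BMP15 both fell. Bmpr1b (chromosome 3, 141837136 to 142169425, minus strand), the type I subunit, spanned 17.6 to 45.3 FPKM in WT with a median of 20.3, and was at 13.6, 8.88, 6.08, 10.6 and 7.11 FPKM in CKO replicates 1 to 5. No CKO library reached the lowest WT library. Means were 25.1 ± 9.63 and 9.27 ± 3.0 FPKM (SD, n = 7 and 5), a ratio of 2.71, and the log2 fold change was -1.33 (SE 0.23, limma adjusted p = 0.00163).

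Bmpr2 (chromosome 1, 59763400 to 59879014, plus strand), the type II receptor that both GDF9 and BMP15 use, ranged from 43.8 to 103 FPKM in WT with a median of 59.9. In CKO replicates 1 to 5 it was at 37.9, 44.0, 30.1, 40.4 and 34.7 FPKM. Only CKO replicate 2 reached the lowest WT library, the one without a number, and the other 4 were below all of WT. The mean was 66.5 ± 20.2 FPKM in WT and 37.4 ± 5.34 in CKO (SD, n = 7 and 5), and the log2 fold change was -0.77 (SE 0.18, limma adjusted p = 0.0104). This call was lost when CKO replicates 1 and 5 were both left out, at -0.75 (limma adjusted p = 0.0567). Within WT, Bmpr1b and Bmpr2 had r of 0.91 (n = 7, exact permutation p = 0.004, adjusted 0.01), and 0.79 without the 2 farthest libraries. Spearman's rho was 0.79 (exact permutation p = 0.048), which did not pass after adjustment over 5 relations (0.1105). The relation of Gdf9 in WT did not pass the test for Bmpr1b (r = 0.50, exact permutation p = 0.2567), for Bmpr2 (r = 0.13, exact permutation p = 0.7732) or for Bmp6 (r = 0.65, exact permutation p = 0.12), and 7 libraries leave wide room for either answer.

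Bmpr1b lay further below Bmpr2 in CKO, the within-library difference being -1.38 ± 0.18 in WT and -1.94 ± 0.33 in CKO (SD, n = 7 and 5), a shift of -0.56 (exact permutation p = 0.0063, adjusted 0.0084). Granulosa cell markers were lower in CKO, as were both receptors: all 12 fell, with a median log2 fold change of -2.05. Their summed level was 4417 to 7741 FPKM in WT and 1828 to 3094 in CKO, without overlap. CKO replicate 1 had the highest sum and the highest Bmpr1b of the CKO libraries. By contrast, CKO replicate 2 had the lowest sum, 1828 FPKM, and the highest Bmpr2, 44.0. CKO replicate 3, at a sum of 2049 FPKM, had the lowest Bmpr1b and Bmpr2, 6.08 and 30.1. The 2 most abundant of these markers were Inha, the inhibin alpha subunit, and Gja1, the gap junction protein of granulosa cells. They had log2 fold changes of -1.31 and -1.08 (limma adjusted p = 0.00148 and 0.002). Over the list the values ran from -0.49 for Foxl2, a call lost in 6 of 12 fits with a library left out, to -4.14 for Inhba, an activin subunit. The part of granulosa cell number in the receptor values was not tested.

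Tgfbr1 (chromosome 4, 47353222 to 47414931, plus strand), the type I receptor for GDF9, ranged from 42.6 to 82.4 FPKM in WT with a median of 66.7. It was at 67.1, 88.2, 81.5, 78.4 and 77.1 FPKM in CKO replicates 1 to 5. The groups overlapped and the log2 fold change of 0.31 (SE 0.15) had a limma adjusted p of 0.181. Set against Bmpr2 in the same library, Tgfbr1 was level with it in WT, at -0.03 ± 0.26, and 1.05 ± 0.23 higher in CKO (SD, n = 7 and 5), with no overlap. The difference of 1.08 had an exact permutation p of 0.0013 (adjusted 0.0034). Of this pair Bmpr2 passed the test and Tgfbr1 did not.

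**Figure D4:**
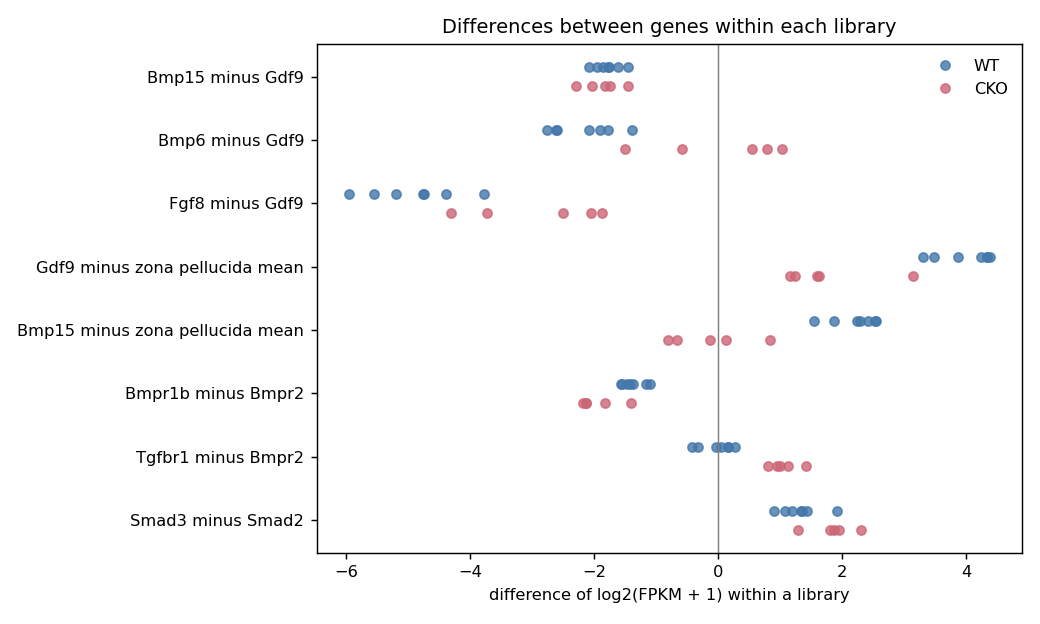
Difference of log2(FPKM + 1) between 2 genes of the same library (x axis) for 8 gene pairs (y axis) in 7 WT (blue) and 5 CKO (red) libraries; the zona pellucida mean is over Zp1, Zp2 and Zp3. The groups are apart for Tgfbr1 minus Bmpr2, and for Gdf9 and Bmp15 against the zona genes, of which Zp1 and Zp2 are near 1 FPKM or below, and Bmp15 minus Gdf9 overlaps, at -1.79 in WT and -1.88 in CKO on average.

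The 2 SMADs that GDF9 activates did not pass the test. Smad2 (chromosome 18, 76241580 to 76310963, plus strand) spanned 9.71 to 14.3 FPKM in WT, median 11.4, and was at 9.27, 11.8, 8.65, 8.48 and 10.8 in CKO replicates 1 to 5, with 3 CKO libraries below all of WT (log2 fold change -0.23, SE 0.12, limma adjusted p = 0.194). Smad3 (chromosome 9, 63646767 to 63757994, minus strand) spanned 23.6 to 39.1 FPKM in WT, median 31.3, and was at 36.3, 43.6, 36.1, 45.6 and 27.7 in CKO, with 2 CKO libraries above all of WT (log2 fold change 0.29, SE 0.14, limma adjusted p = 0.172). Their balance, Smad3 minus Smad2, was 1.31 ± 0.32 in WT and 1.84 ± 0.36 in CKO (SD, n = 7 and 5), a difference of 0.53 (exact permutation p = 0.0354, adjusted 0.0404). That call was lost in 7 of the 12 tests that leave out 1 library, among them those without WT replicate 2, 6 or 7 and without CKO replicate 1, 2, 3 or 4, where the difference was 0.41 to 0.54.

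Fgfr1 (chromosome 8, 25513654 to 25575718, plus strand), a receptor for FGF8 and other FGFs, was the only member that rose. It ranged from 8.12 to 12 FPKM in WT with a median of 10.6, and was at 21.0, 14.8, 18.3, 16.0 and 14.3 FPKM in CKO replicates 1 to 5. All CKO libraries lay above all WT libraries. Means were 10.3 ± 1.46 and 16.9 ± 2.77 FPKM (SD, n = 7 and 5), a ratio of 1.64, and the log2 fold change was 0.66 (SE 0.13, limma adjusted p = 0.003). Of its 9875 annotated exon bases, 164 are shared with an antisense gene. Of 6 stromal fibroblast markers, 2 rose (Dcn, log2 fold change 2.24, and Lum, 1.24, both matrix proteoglycans) and 0 fell. Pdgfra, Col1a1, Col1a2 and Col3a1 did not pass. The summed level of all 6 was 464 to 697 FPKM in WT and 1291 to 1726 in CKO, without overlap. Most of its rise was that of Dcn (mean 191 FPKM in WT, 892 in CKO) and Lum (165 and 396). Within CKO, replicate 2 had the highest sum with Fgfr1 at 14.8 FPKM, and replicate 5 had the lowest of both. Macrophage markers, 4 of 5 of which rose, summed to 98.7 to 351 FPKM in WT and 320 to 705 in CKO. Their part in the Fgfr1 value was not tested.

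Ordered by mean FPKM, the WT ovary had Bmpr2, Tgfbr1, Gdf9, Smad3, Bmpr1b, Bmp15, Smad2, Fgfr1, Bmp6 and Fgf8. Within that order, 7 of the 9 neighbouring pairs differed by less than the larger SD of the pair, and the exceptions were Bmpr1b above Bmp15 and Bmp6 above Fgf8. That SD is over libraries and ignores that both genes are read in the same library. Gdf9 was above Smad3 in 7 of 7 WT libraries and Smad3 above Bmpr1b in 6, but Bmpr2 above Tgfbr1 in only 3. The CKO ovary had Tgfbr1, Smad3, Bmpr2, Fgfr1, Smad2, Gdf9, Bmpr1b, Bmp6, Bmp15 and Fgf8. There 4 pairs differed by more than the larger SD: Tgfbr1 above Smad3, Bmpr2 above Fgfr1, Fgfr1 above Smad2 and Bmp6 above Bmp15. By group means Gdf9 thus stood between Tgfbr1 and Smad3 in WT, and between Smad2 and Bmpr1b in CKO, differing from all 4 by less than its SD. Library by library, its place above Smad3 held throughout WT, while in CKO it was below Smad2 in 3 of 5 libraries.

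The genes whose log2 levels over the 12 libraries were most like those of Gdf9 were Bmp15 (r = 0.988), AU022751 (0.985), Zar1 (0.982) and Rfpl4 (0.982). Zar1, an oocyte factor needed for the first embryonic divisions, was at 23.1 ± 9.66 FPKM in WT and 2.10 ± 3.23 in CKO, a log2 fold change of -3.40 (limma adjusted p = 0.000625). With the group means taken off, the closest to Gdf9 were AU022751 (0.974), Bmp15 (0.969) and Zar1 (0.944). For Bmp15 the closest were AU022751 (0.990), Zar1 (0.989), Gdf9 (0.988) and Serpine2 (0.983), a protease inhibitor of cumulus cells, and with group means taken off Gdf9 (0.969), AU022751 (0.955) and Zar1 (0.950). These correlations describe 12 libraries that share the group difference and their cell makeup. They were chosen as the highest among 12420 tested genes, Gm, Rik and some clone names being left out. A fall of a gene chosen over both groups in this way is no separate result.

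Beyond the members, 8 lists of pathway genes were counted in the same fit, in which 7.59% of all tested genes were lower and 8.70% higher. Of 7 tested other receptors of the TGF-beta family (9 listed), 2 rose and 0 fell. Tgfbr2, the type II receptor for TGF-beta, was at 43.0 ± 6.60 FPKM in WT and 68.9 ± 8.17 in CKO, a log2 fold change of 0.67 (limma adjusted p = 0.00188), and Acvr1, a type I receptor for BMPs and activins, had one of 0.74 (limma adjusted p = 0.00242). Both were higher in every CKO library than in any WT library. The other type I receptors Acvrl1 and Bmpr1a, the latter at 49.2 ± 4.43 and 45.6 ± 4.76 FPKM, did not pass (limma adjusted p = 0.199 and 0.476). Of 10 other SMADs and proteins that limit them, 0 rose and 0 fell, and 4 of these, the inhibitory Smad7, the ubiquitin ligase Smurf1 and the BMP mediators Smad5 and Smad1, had log2 fold changes of -0.28, -0.16, -0.21 and -0.16. At the shares over all genes, few or no calls would stand in lists of this length, so the counts of 0 are no result about the lists.

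Of 8 tested convertases and antagonists (10 listed), 1 fell and 2 rose. Pcsk6, a convertase that cleaves precursors of this family, was at 8.08 to 15.6 FPKM in WT and at 18.6 to 43.8 in CKO, a log2 fold change of 1.34 (limma adjusted p = 0.000548). Bambi, a decoy receptor that dampens signalling, rose by 0.57 (limma adjusted p = 0.00814), and Nbl1, a BMP antagonist, did not pass (0.49, limma adjusted p = 0.0897). Grem1, a BMP antagonist that cumulus cells make in response to oocyte factors, was at 0.240 to 42.5 FPKM in WT and at 0 to 0.662 in CKO, a log2 fold change of -3.77 (limma adjusted p = 0.00191). The WT library without a number was at 0.240 FPKM and overlapped CKO, and without it the log2 fold change was -4.39.

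Among 8 tested other BMP, GDF and FGF ligands (11 listed), 3 rose and 0 fell, with a median log2 fold change of 0.89. Bmp4, a ligand of theca and stroma, was at 4.05 ± 1.16 FPKM in WT and 9.79 ± 2.35 in CKO, a log2 fold change of 1.11 (limma adjusted p = 0.00163). Fgf7, a stromal FGF, had one of 1.75 (limma adjusted p = 0.0166) and was at 6.30, 13.3, 30.4, 2.54 and 2.49 FPKM in CKO replicates 1 to 5. The 2 highest values were in replicates 2 and 3, the libraries with the oviduct marker Ovgp1 (252 and 81.9 FPKM), and without both the call was lost (0.86, limma adjusted p = 0.062). The stromal markers Dcn and Lum also rose, and the part of either in the Fgf7 value was not tested. Gdf3 had one of 1.59 (limma adjusted p = 0.0195), lost without CKO replicate 5 (limma adjusted p = 0.0566). Fgf1 did not pass (0.67, limma adjusted p = 0.0573). Of the 4 other FGF receptors, Fgfrl1, which lacks a kinase domain, fell (-0.50, limma adjusted p = 0.0138), Fgfr4 rose (0.69, limma adjusted p = 0.0393) with a call lost in 8 of 12 fits with a library left out, and Fgfr2 and Fgfr3 had values of -0.03 and 0.00. The 9 genes that FGF and ERK signalling induces split as well: Spred2 fell (-0.51, limma adjusted p = 0.0228) and Spry2 rose (0.46, limma adjusted p = 0.0274), calls lost in 2 and 4 such fits, while Spry4 (-0.55) and Etv4 (-0.48) did not pass. Without CKO replicates 2 and 3 the calls of Fgfrl1, Fgfr4 and Spry2 were lost as well (limma adjusted p = 0.0989, 0.152 and 0.0548).

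Of 15 tested genes that oocyte factors raise in granulosa and cumulus cells (19 listed), 2 fell and 0 rose, against 7.59% lower over all genes. The 12 granulosa cell markers, which include Amh, all fell beside them, and the part of granulosa cell number in these values was not tested. Slc38a3, the amino acid transporter that oocytes induce in cumulus cells, was at 8.86 to 28.2 FPKM in WT and 0 to 1.58 in CKO, a log2 fold change of -3.24 (limma adjusted p = 4.46e-05). Amh, the anti-Müllerian hormone, was at 35.1 to 309 FPKM in WT and 4.18 to 34.1 in CKO (log2 fold change -2.69, limma adjusted p = 0.00322). The natriuretic peptide receptor Npr2 (-0.58) and the glycolytic Tpi1 (-0.30) did not pass (limma adjusted p = 0.0629 and 0.0924), and Impdh2 is listed at 0 in all 12 libraries. Of the 3 genes that oocyte factors lower in granulosa cells, none passed: Kitl, the KIT ligand, was at 54.3 ± 12.9 FPKM in WT and 72.4 ± 7.57 in CKO (0.43, limma adjusted p = 0.0608), Lhcgr had -0.31 and Plau 0.10. Single libraries mattered here, in opposite directions. Kitl passed as higher without WT replicate 6 (0.52, limma adjusted p = 0.0142). Lhcgr passed as lower without the unnumbered WT library (-0.71, limma adjusted p = 0.0363). The list medians were -0.30 for the raised and 0.10 for the lowered genes, against -0.005 over all tested genes.

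**Figure D5:**
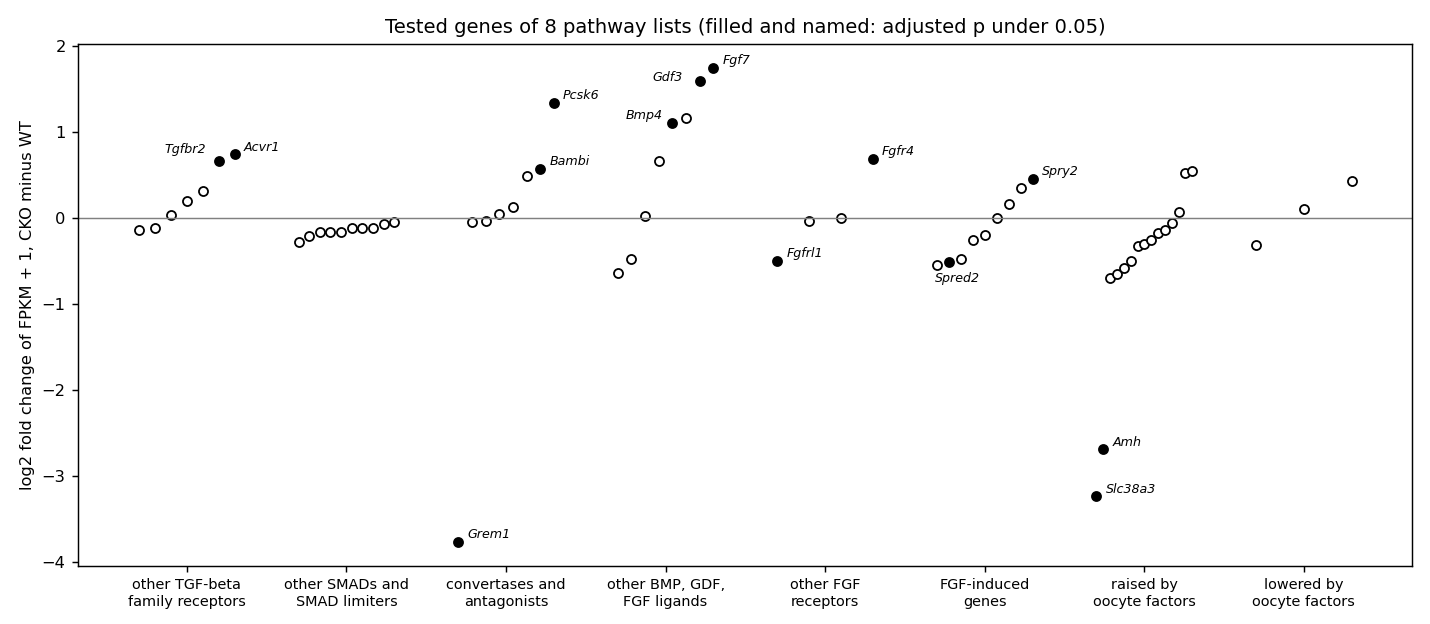
Log2 fold change of FPKM + 1, CKO minus WT (y axis), of each tested gene of the 8 pathway lists (x axis), ordered by value within a list; filled and named points passed the adjusted p of 0.05 over all genes. Slc38a3, Amh and Grem1 lie lowest, at -3.24, -2.69 and -3.77, and all 10 other SMADs and SMAD limiters lie near 0 and unfilled.

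In the authors' deposited table, made with Cuffdiff, 5 of the members have a q-value of 0.0006, namely Gdf9 (log2 fold change -2.44), Bmp15 (-3.09), Bmpr2 (-0.83), Bmpr1b (-1.44) and Fgfr1 (0.72). The authors' deposited table gives q-values of 0.126 for Bmp6, 0.246 for Tgfbr1, 0.302 for Smad2, 0.167 for Smad3 and 1 for Fgf8. The first 5 are also the members that passed the limma test above.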

How the data were processed

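Polyadenylated RNA of whole ovaries was sequenced in 12 libraries (7 WT, 5 CKO). The authors aligned reads to mm10 with TopHat2 2.0.13, computed FPKM with Cufflinks 2.2.1 and compared groups with Cuffdiff, per the submitters' processing notes. How the values were scaled, on which annotation and with which strand setting is not given in the sources used here. Deposited values are FPKM per gene symbol and library, with the authors' log2 fold change and q-value, used only where named; despite the name of its column, that fold change was CKO over WT (99.9% of genes above a mean of 1 FPKM matched to 0.01). Deposited p-values were not used here. The name of 1 WT column fits the labels of more than 1 WT sample, and this library carries no number here. The other columns were matched by sample description, and by that match WT replicate 5 is the one left for it. The fits by shared replicate number did not use it or CKO replicate 5.

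Far values within a group were sought in plain FPKM, whereas the limma fit (R 4.3.3) and the permutation tests used log2(FPKM + 1). The 13168 genes that reached 1 FPKM in 5 or more of 12 libraries were tested, two-sided, with limma 3.58.1, an empirical Bayes fit with a mean-variance trend and group as the sole term, and Benjamini-Hochberg adjustment over all of them; a fold change on this scale understates that of low genes. The procedure was tested on simulated data. Single values, 8 within-library ratios and 5 relations in WT used exact two-sided permutation tests (Python 3.11.15), over 792 splits for group differences, where 0.0013 is the smallest p possible. Relative depth came from 1579 low genes, 83.2% of which were whole multiples of a step within 0.1. No pair of libraries was a duplicate (highest correlation 0.974).

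The members and gene lists were chosen with earlier results of these data known. Named genes are all members; the 4 tested genes with the smallest p of each pathway list (all of a list of 5 or fewer); the 4 tested genes with the highest r to a ligand or Bmpr1b, and 3 with group means taken off; and the 2 markers of each list with the highest WT level. The search for the highest r covered 12420 tested genes and left out Gm-numbered and Rik names and names starting with AC, AL or BC. Zp1 to Zp3 entered through the ratios. The other oocyte markers and the granulosa markers Foxl2 and Inhba were named after their values were seen. Alternatives covered the pseudocount, filter, 2 scalings, array weights, an exact Wilcoxon test, each library left out and a replicate block; leaving out pairs of CKO libraries and using the 8 libraries that share numbers were added after seeing the data.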

Additional observations from a re-analysis of the deposited data

Results flagged for a closer look

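Each group's highest and lowest values of the 10 genes were compared with the rest of the group, in 20 groups of libraries, and 2 values stood far from the others; chance alone flags about 1 in 20 groups. Fgf8 in CKO replicate 1, at 0.33 FPKM, was the only CKO library above 0, and stands for about 1.3 fragments. With the other 4 at 0, any value above 0 there would be flagged, so the chance rate does not apply to it. Bmpr1b in WT replicate 2, at 45.3 FPKM, lay apart from the other 6 WT libraries. The gap, in plain FPKM and not on the log2 scale, was 0.62 of the group's range against a critical value of 0.568. The same library also had the highest Bmpr2, at 103 FPKM.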

How the results depend on the processing

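The log2 fold changes of Gdf9, Bmpr1b and Fgfr1 kept their direction and their call in all 24 alternatives, and that of Bmp15 in the 23 that could test it, since it does not pass a filter of 1 FPKM in all 12 libraries. Over these settings Gdf9 was -3.06 to -2.07, Bmp15 -3.78 to -1.51, Bmpr1b -1.47 to -1.05 and Fgfr1 0.52 to 0.72. Bmpr2 (-0.94 to -0.65) lost its call only without CKO replicates 1 and 5 together, at limma adjusted p = 0.0567, and the other 4 tested members never passed. Over all genes, 999 were lower and 1145 higher; the replicate block gave 564 and 702, though numbers do not pair the libraries (correlations of deviations -0.0328, 0.0901, 0.0396 and -0.071), and 4 members lower and 1 higher were called under it. With only the 8 libraries that share numbers, 646 were lower; without CKO replicates 1 and 5 together 671 were higher, and by the exact Wilcoxon test 749. Leaving out 1 library gave 732 to 1091 lower and 869 to 1193 higher. Of the pathway list genes 5 were lower and 9 higher, where 7.59% of all tested genes were lower and 8.70% higher. With 1 library left out 4 to 8 were lower, the 8 without the unnumbered WT library, and 7 to 11 were higher. The tested genes per list are given above, and no result about the lists is drawn from these counts. Of the 8 ratios, those to zona genes included, 7 passed, 6 to 7 with 1 library left out. The ratios share genes, and most hold a member that passed alone, so the 7 are not separate results. With a pseudocount of 0.1, 7 passed as well, but Bmp15 minus Gdf9 had replaced Fgf8 minus Gdf9. Bmp15 minus Gdf9 was -0.19 to 0.02 with 1 library left out, the 0.02 without CKO replicate 1 lying on the other side of 0. The cause of these changes was not tested. Few fragments limit Fgf8 where it is above 0, and Bmp15 in 3 CKO libraries. Whether the values of 0 for Fgf8 are failed estimates was not tested.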

Other observations

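Genes most like Bmpr1b in log2 level over the 12 libraries were Hsp90b1 (r = 0.976), a chaperone of secreted proteins, Plk4 (0.972), a kinase of centriole duplication, Hey2 (0.970), a Notch target, and Slfn14 (0.968). All 4 fell in CKO, with log2 fold changes of -0.66, -1.08, -1.36 and -1.44 (limma adjusted p = 0.00237, 0.00104, 0.000597 and 0.00262). Hsp90b1 went from 118 ± 19.8 to 73.9 ± 9.05 FPKM (SD, n = 7 and 5). These 4 were picked for a high r with Bmpr1b over both groups, and Bmpr1b itself fell, so their falls are no separate result. With group means taken off, the closest to Bmpr1b were Sema3c (0.950), Top2b (0.924) and Serp2 (0.915), none of which passed the test.

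For Bmp6 the most like were Rpa2 (0.894), Tead2 (0.890), Klhdc2 (0.886) and Gstcd (0.875), and with group means taken off Sfrp2 (0.954), Rhbdl1 (0.935) and Grik5 (0.917). For Fgf8, listed at 0 in 7 libraries, they were Klhl13 (0.952), Bend4 (0.896), Abcd2 (0.890) and Klhl23 (0.887). These correlations describe 12 libraries that share cell makeup and group, and were the highest among the 12420 tested genes searched.

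Of the marker lists for other ovarian cells, theca (6 tested) and smooth muscle (3 tested) had 0 genes that rose or fell, with Hsd3b1, a steroidogenic enzyme, at 9854 ± 2172 FPKM in WT and 9000 ± 2597 in CKO (SD, n = 7 and 5), and Cyp11a1, Acta2 and Des also not passing. Of 3 luteal markers 1 fell, Parm1 (log2 fold change -1.67, limma adjusted p = 0.000873), and Ptgfr did not pass. Of 4 endothelial and 4 epithelial markers tested, 1 each rose. The epithelial gene was Krt19, a keratin (1.07, limma adjusted p = 0.039), a call lost in 8 of 12 fits with a library left out, while Upk3b, Cdh5 and Pecam1 did not pass. Nlrp14, an oocyte marker, fell (-1.49, limma adjusted p = 0.011), and the macrophage markers C1qa and Cd68 rose (1.17 and 1.95, limma adjusted p = 0.00866 and 0.002). Of the red blood cell markers Hba-a1 did not pass (1.41, limma adjusted p = 0.481) and Hbb-bs was not tested, and of the oviduct markers Ovgp1 did not pass (3.09, limma adjusted p = 0.0517) and Foxj1 was not tested.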
